A study of Mus musculus with 10 samples.

Results

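Upb1, Glt8d2, Samd8, Dnah7a and Tmem255a are 5 protein-coding genes that lie outside the usual marker sets of striatal neurons, and each was listed at higher levels in the medial than in the lateral shell of the mouse nucleus accumbens. They were picked by name for that difference, as 5 of the 20483 genes in the table. All 5 are among the 12 largest differences towards medial in the 116 genes that passed the test between the regions, had no overlap between the regions' values and reached a medial mean of 5 TPM. TPM is the abundance of a gene's transcripts relative to its length and to the total of the library, which is scaled to the same sum in each. Since the contrast between the regions chose these genes, it is given for them as a description, with no test.

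The shell of the nucleus accumbens, a ventral striatal structure, has a lateral and a medial part. The series compares tissue of the lateral shell (5 libraries) with tissue of the medial shell (5 libraries), all from wild-type mice, to find how the subregions differ in reward processing. No treatment, age or sex is given, and the labels name neither the animals behind each library nor the way the captured pieces were placed. The libraries were made by Geo-seq, a method that captures small areas of sectioned tissue with a laser and amplifies the little RNA they hold. If some libraries share an animal, p-values measure only the spread between these libraries. In captured tissue, fewer cells of a type and less RNA per cell cannot be told apart.

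The 5 genes belong to unrelated pathways. Upb1 encodes beta-ureidopropionase, which carries out the last step in the breakdown of uracil and thymine and releases beta-alanine. Samd8 encodes an enzyme of the endoplasmic reticulum that makes ceramide phosphoethanolamine, a relative of sphingomyelin, from ceramide. Glt8d2 encodes a glycosyltransferase of family 8, whose members transfer sugars. Dnah7a encodes a heavy chain of the inner dynein arm, the motor that bends motile cilia and flagella. Tmem255a encodes a membrane protein whose role is not established. Neurons of the adult striatum carry a primary cilium, which lacks dynein arms, whereas motile cilia in the brain belong to the ependymal cells that line the ventricles.

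Between 15402 and 17003 genes were above 0 per library, the mitochondrial genome supplied 23.5% to 35.3% of TPM, and depth is unknown because TPM keeps no read counts. The labels call the material mouse neural cells. Genes shared by neurons summed to 1804 to 2087 TPM in lateral against 2098 to 3008 TPM in medial libraries, with 10 of 10 genes above 0 in every library. These sums did not overlap, by a narrow margin. The median difference of the list (lateral minus medial, log2(TPM + 1)) was -0.25, near the -0.21 of all genes tested. Genes of spiny projection neurons, which make up most of the striatum, summed to 2032 to 3159 and 1566 to 2574 TPM. Astrocyte genes summed to 889 to 1231 and 1056 to 1452 TPM, so the captured tissue also held RNA of glia. Of 7 listed genes of glutamatergic neurons, which the striatum lacks, only 2 were in the table. These summed to at most 3.31 TPM in any library.

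The values of the regions overlapped for none of the 5 genes. Of the 15596 genes tested, 4.25% had no overlap in either direction, 3.39% with medial higher and 0.859% with lateral higher. Of the same genes 1.48% passed limma's test with a Benjamini-Hochberg adjusted p under 0.05, 1.1% as higher in medial and 0.385% as higher in lateral. These shares are given as background only, since the genes were chosen for this separation. Among all genes tested, ranked by the size of the difference towards medial, Glt8d2 was number 8, Upb1 10, Samd8 17, Dnah7a 21 and Tmem255a 28. Among the 116 genes that met the rule above, Tmem255a was the last of the 12 at -2.63, and the next were Rasal1 at -2.62 and Slitrk1 at -2.54. Each difference is the lateral mean minus the medial mean of log2(TPM + 1), a scale that compresses the change of low genes.

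**Figure D1:**
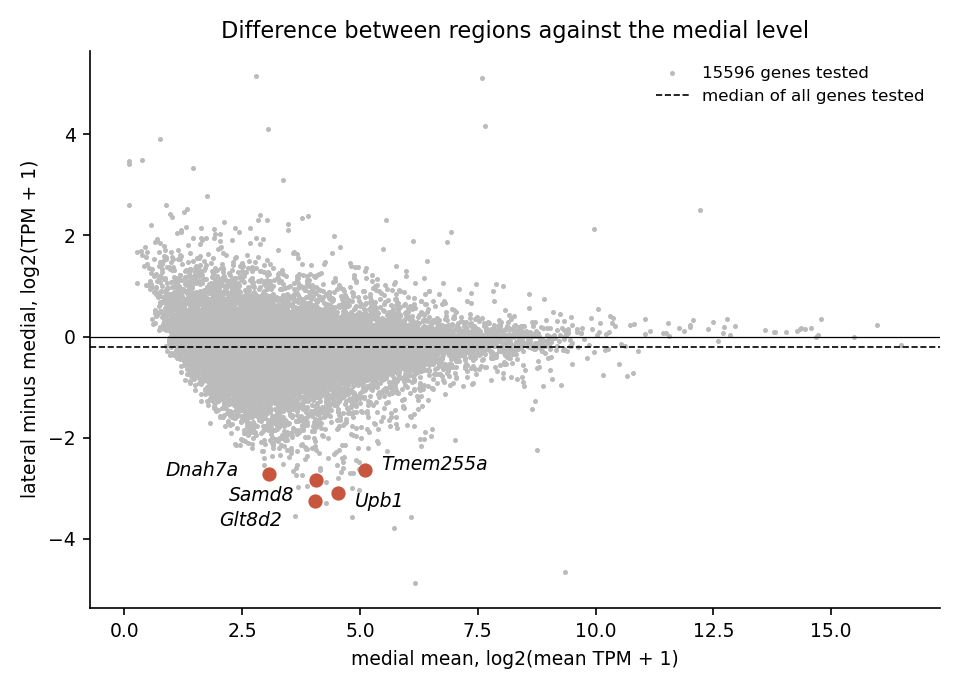
Difference between the regions (lateral minus medial, log2(TPM + 1), vertical axis) against the medial level (log2 of mean TPM plus 1, horizontal axis) for the 15596 genes tested, with the 5 genes in red and the median of all genes as a dashed line. The 5 genes lie between -2.63 and -3.25 at medium medial levels, and the median of all genes is at -0.21.

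The regions were not level at this scaling, since the median difference of all genes tested was -0.21. It was -0.02 after median-ratio scaling between libraries and 0.00 after quantile normalization. Of the genes that passed, 171 were higher in medial and 60 higher in lateral, against 82 and 88 after median-ratio scaling and 100 and 86 after quantile normalization. The 5 genes kept their direction under both: Upb1 stood at -2.91 and -2.85, Glt8d2 at -3.08 and -3.03, Samd8 at -2.66 and -2.61, Dnah7a at -2.59 and -2.53, and Tmem255a at -2.43 for each.

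**Figure D2:**
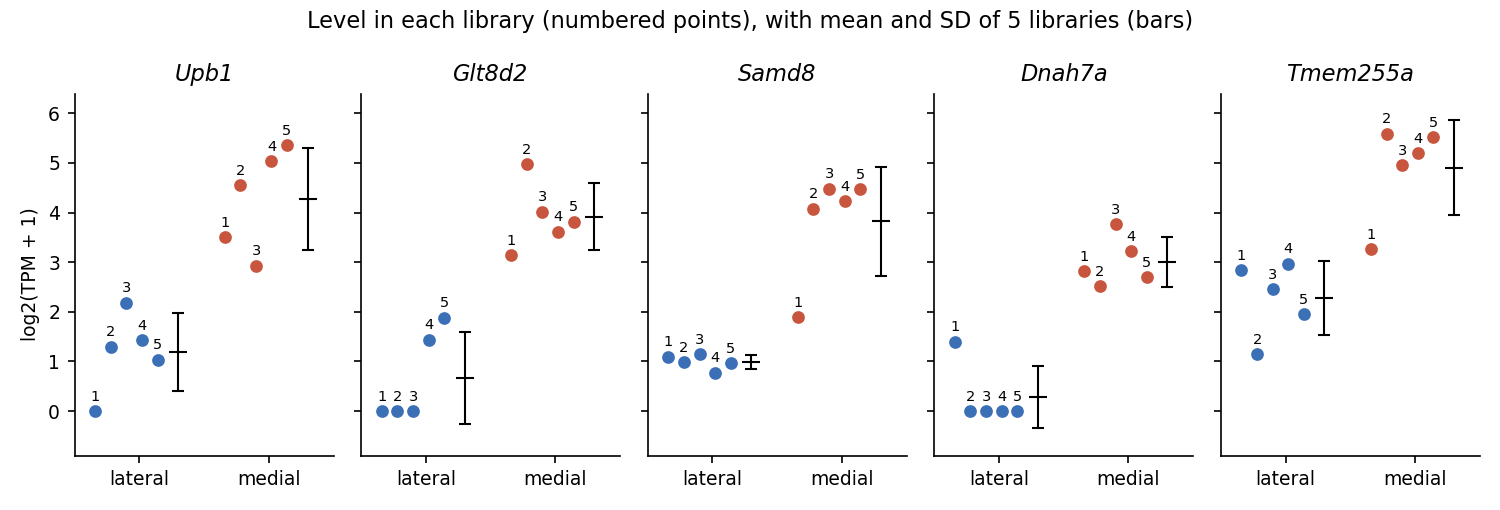
Level of each of the 5 genes (log2(TPM + 1), vertical axis) in the 5 lateral and 5 medial libraries, numbered by replicate, with the mean and SD of each region as a bar beside the points. Medial replicate 1 is the lowest medial library for Glt8d2, Samd8 and Tmem255a, and no lateral point reaches a medial one.

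Upb1, the pyrimidine breakdown enzyme, spans chr10:75401115-75441679 on the plus strand (GENCODE M21 on GRCm38, up to 10 exons). Its promoter sequence is shown because the 5 genes were high in the same region, so that what stands before their starts can be set side by side. RefSeq (GRCm38.p6) places a start inside the GENCODE gene. The 250 bases before it, chr10:75406661-75406910 on the plus strand, read as follows, with matches to CCAAT, a common promoter element, on either strand in capitals.
Upb1: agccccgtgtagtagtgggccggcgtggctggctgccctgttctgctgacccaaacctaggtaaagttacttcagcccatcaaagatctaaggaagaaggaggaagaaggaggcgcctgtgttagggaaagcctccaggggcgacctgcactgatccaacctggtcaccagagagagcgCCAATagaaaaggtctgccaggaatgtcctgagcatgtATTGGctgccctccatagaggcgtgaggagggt

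The matches lay 71 to 67 and 33 to 29 bases before the start, and 33.8% of the 32851 RefSeq promoters hold CCAAT in the same window. Such a match is a description of the letters and not a site. The other motifs searched on both strands in all windows were TATAAA (12.4% of promoters), GGGCGG (32.7%), CACGTG (6.02%), TGACGTCA (1.55%), AGGTCA (14%) and the X-box, the element bound by the RFX factors of ciliary genes (0.207%). These motifs were chosen with the sequences in view, and no matches overlapped one another.

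Upb1 was listed at 0, 1.45, 3.54, 1.69 and 1.04 TPM in lateral replicates 1 to 5. In medial replicates 1 to 5 it stood at 10.3, 22.4, 6.60, 31.7 and 40.1 TPM, a mean of 22.2 ± 14.1 TPM (SD, n = 5). The spread among medial libraries was wide, with medial 3 lowest and medial 5 highest, and the lowest medial value was 1.86 times the highest lateral one. The difference was -3.09 with a standard error of 0.51.

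Other genes of pyrimidine breakdown and salvage did not pass the test, at 0 of 6 tested in either direction, with a median difference of -0.27. Uckl1, a uridine kinase of the salvage pathway, was at 10.4, 3.27, 10.5, 11.7 and 4.70 TPM in lateral against 17.2, 23.7, 15.4, 25.3 and 18.8 TPM in medial libraries. Its values did not overlap between the regions, but its difference of -1.31 missed the threshold (limma adjusted p = 0.0711). Upp2, a uridine phosphorylase, was likewise free of overlap at 0.581 to 1.92 against 2.53 to 4.16 TPM (-0.74, limma adjusted p = 0.343). The most abundant gene of the list, the uridine-cytidine kinase gene Uck1, stood at 26.6 ± 9.42 TPM in lateral against 31.2 ± 4.55 TPM in medial libraries (SD, n = 5 each). Dpyd, which encodes the first enzyme of the breakdown pathway, was listed at 0 to 4.35 TPM in lateral against 0 to 0.975 TPM in medial libraries and was too low to be tested. Dpys, the enzyme just before Upb1 in the pathway, was not analysed here.

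Genes that use beta-alanine, the product of Upb1, gave 0 of 9 tested in either direction, with a median of -0.23. Abat, the transaminase that breaks down both beta-alanine and GABA, was at 121, 129, 94.8, 116 and 116 TPM in lateral against 145, 182, 174, 195 and 216 TPM in medial libraries. All medial values were above all lateral ones, and the difference of -0.65 lay just outside the threshold (limma adjusted p = 0.0508). It passed under quantile normalization (0.0324), with sample weights (0.0420) and without medial replicate 1 (0.0290), and over the 21 alternatives its limma adjusted p ran from 0.0290 to 0.192. The taurine and beta-alanine transporter gene Slc6a6 was at 40.4 ± 9.46 TPM in lateral against 43.4 ± 7.16 TPM in medial libraries (SD, n = 5 each; limma adjusted p = 0.83).

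Upb1 overlaps Gucd1 on the other strand, and whether the counting used strand is not stated in the labels. Gucd1 stood at 8.72 ± 2.15 TPM in lateral libraries and at 0 to 14.5 TPM in medial ones, with the higher mean in lateral (limma adjusted p = 0.554). The nearest protein-coding neighbour in the table is Adora2a, an adenosine receptor gene of the D2 type of projection neuron, whose end lies 66330 bases away. Adora2a did not pass between the regions, at 147 ± 56.7 TPM in lateral against 145 ± 43.4 TPM in medial libraries (-0.03, limma adjusted p = 0.978). Of 15 tested protein-coding genes within 500000 bases none passed, with a median of -0.15. The lowest of them was Gstt1, a glutathione transferase gene, at 0 to 6.53 against 10.6 to 17.2 TPM (-2.23, limma adjusted p = 0.0799).

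Glt8d2, the family 8 glycosyltransferase gene, spans chr10:82650433-82690650 on the minus strand, on the same chromosome as Upb1. It was listed at 0 in lateral replicates 1, 2 and 3 and at 1.71 and 2.69 TPM in lateral 4 and 5. In medial replicates 1 to 5 it stood at 7.85, 30.5, 15.2, 11.3 and 13.1 TPM, a mean of 15.6 ± 8.77 TPM (SD, n = 5). Medial 2 was well above the rest and medial 1 was the lowest, yet still 2.92 times the highest lateral value, the widest such gap of the 5 genes. The difference was -3.25 with a standard error of 0.48.

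The other genes listed with family 8, among them Uggt1 and Uggt2 of another glycosyltransferase family, did not pass. They gave 0 of 7 tested in either direction, with a median of -0.10. Glt8d1, the closest relative by name, stood at 7.60 to 12.7 TPM in lateral against 8.69 to 19.7 TPM in medial libraries, which overlap (-0.55, limma adjusted p = 0.331). Gyg, encoding glycogenin, the primer of glycogen synthesis, was at 16.3 ± 5.18 and 27.0 ± 7.74 TPM (SD, n = 5 each; limma adjusted p = 0.252). Xxylt1, a xylosyltransferase that extends sugars on Notch, was at 17.8 ± 7.64 and 16.8 ± 4.09 TPM (limma adjusted p = 0.987).

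The end of Glt8d2 overlaps Tdg, a DNA repair glycosylase gene, on the other strand, and 5.47% of the distinct 50-base stretches of its transcripts occur there in reverse. Tdg had the higher mean in lateral libraries, at 2.19 to 14.3 TPM against 1.34 to 18.3 TPM in medial ones, with full overlap (limma adjusted p = 0.701). Hcfc2, which starts on the other strand 5509 bases beyond the start of Glt8d2, was at 7.56 ± 2.26 and 13.7 ± 4.11 TPM (-0.79, limma adjusted p = 0.204). The neighbour on the other side, 1190007I07Rik, was at 13.6 ± 1.31 and 17.3 ± 2.25 TPM (limma adjusted p = 0.457). Of 10 tested genes within 500000 bases none passed, with a median of -0.36.

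Samd8, the ceramide phosphoethanolamine synthase gene, spans chr14:21750531-21798726 on the plus strand in up to 6 exons. It has 2 promoters in the RefSeq table, and the one shown ends just before the first base of the GENCODE gene, at chr14:21750281-21750530 on the plus strand. Capitals mark a match to GGGCGG, the GC box, on the other strand, 13 to 8 bases before the start.
Samd8: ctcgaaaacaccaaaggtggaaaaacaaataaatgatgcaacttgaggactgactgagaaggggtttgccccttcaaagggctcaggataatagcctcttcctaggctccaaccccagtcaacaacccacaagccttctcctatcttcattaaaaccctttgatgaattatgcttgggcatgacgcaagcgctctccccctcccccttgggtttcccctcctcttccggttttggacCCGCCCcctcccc

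Samd8 was at 1.13, 0.983, 1.21, 0.709 and 0.954 TPM in lateral replicates 1 to 5, a mean of 0.998 ± 0.193 TPM (SD, n = 5). In medial replicates 1 to 5 it stood at 2.70, 15.9, 21.3, 17.7 and 21.2 TPM, a mean of 15.8 ± 7.66 TPM (SD, n = 5). The lateral libraries were close together near 1 TPM, 4 medial libraries were close together at a much higher level, and medial 1 lay between the groups. The difference was -2.84 with a standard error of 0.47, and -3.32 without medial replicate 1. The low lateral level of Samd8 was above 0 in all 5 libraries, unlike that of Upb1, Glt8d2 and Dnah7a.

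Among the other genes that make sphingolipids from ceramide or supply ceramide, 1 of 19 tested passed as higher in medial and none as higher in lateral, with a median of -0.21. The one that passed was Sptssa, a small subunit of serine palmitoyltransferase, the first enzyme of sphingolipid synthesis. It was at 75.8, 52.3, 46.2, 56.6 and 65.3 TPM in lateral against 93.5, 103, 107, 104 and 130 TPM in medial libraries, with no overlap (-0.86, limma adjusted p = 0.0252). The call was lost in 10 of 21 alternatives, among them median-ratio scaling (0.0626) and the fits without lateral replicate 2 or 4 or any of medial replicates 2 to 5, and its limma adjusted p ran from 0.0176 to 0.118.

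The catalytic subunits of the same enzyme did not pass: Sptlc1 was at 14.3 ± 3.02 TPM in lateral against 11.5 ± 3.58 TPM in medial libraries, and Sptlc2 at 3.94 ± 2.07 and 4.94 ± 1.67 TPM (SD, n = 5 each; limma adjusted p = 0.610 and 0.725). Sgms1, which makes sphingomyelin and shares the catalytic domain of Samd8, was at 3.05 to 9.11 against 3.59 to 12.1 TPM (-0.21, limma adjusted p = 0.83). The ceramide synthase gene Cers5 and Ormdl1, a brake on serine palmitoyltransferase, had no overlap between the regions and did not pass, at -0.70 and -1.02 (limma adjusted p = 0.119 and 0.130). Degs1, the desaturase that completes ceramide, was at 64.0 ± 17.2 and 68.1 ± 11.7 TPM (limma adjusted p = 0.837).

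Of 17 tested genes of sphingolipid breakdown and phosphoethanolamine turnover 1 passed as higher in medial and none as higher in lateral, with a median of -0.20. It was Etnppl, the lyase that breaks down phosphoethanolamine, at 1.07, 1.11, 0.857, 0.886 and 2.50 TPM in lateral against 4.79, 4.00, 6.81, 5.48 and 6.21 TPM in medial libraries. Its values did not overlap (-1.52, limma adjusted p = 0.0422). The call was lost in 16 of 20 alternatives, with a limma adjusted p of 0.0165 to 0.119. These included the fits without any single library other than lateral replicate 5. Galc, a galactosylceramidase of myelin lipids, had no overlap at 2.12 to 3.16 against 3.31 to 7.03 TPM and did not pass (limma adjusted p = 0.308). The sphingomyelinase genes Smpd1 and Smpd3 stood at 40.4 ± 9.37 and 61.2 ± 20.03 TPM in lateral against 36.5 ± 13.3 and 53.4 ± 11.4 TPM in medial libraries (SD, n = 5 each; limma adjusted p = 0.766 and 0.767).

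The first bases of Samd8 overlap Dusp13 on the other strand, which was not analysed here. Its neighbours in the table, the histone acetyltransferase gene Kat6b and the mitochondrial channel gene Vdac2, stood at 6.35 ± 2.91 and 52.5 ± 11.5 TPM in lateral against 9.61 ± 2.26 and 72.0 ± 14.9 TPM in medial libraries (limma adjusted p = 0.395 and 0.302). Of 5 tested genes within 500000 bases none passed, with a median of -0.45.

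Dnah7a, the inner-arm dynein heavy chain gene, spans chr1:53397006-53706784 on the minus strand, at 309779 bases the longest of the 5, with up to 66 exons. Its promoter is shown because it carries the X-box palindrome GTTGCTTAGCAAC, in capitals, 57 to 45 bases before the RefSeq start. The window is chr1:53706785-53707034 on the minus strand. The last 80 bases before the start of its paralog Dnah7c (chr1:46425438-46425517, plus strand), which hold the same palindrome, are given beside it.
Dnah7a: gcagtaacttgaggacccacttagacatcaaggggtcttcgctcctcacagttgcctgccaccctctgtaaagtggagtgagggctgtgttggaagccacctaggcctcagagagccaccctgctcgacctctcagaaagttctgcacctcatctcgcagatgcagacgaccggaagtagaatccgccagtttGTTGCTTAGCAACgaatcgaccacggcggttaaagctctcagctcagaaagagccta
Dnah7c: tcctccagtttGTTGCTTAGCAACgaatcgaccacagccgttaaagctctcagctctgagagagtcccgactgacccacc

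In Dnah7c the palindrome lay 69 to 57 bases before the start, and in the other paralog, Dnah7b, 24 to 12 bases before it. The X-box was found in 4 of the 14 axonemal dynein heavy chain genes that have a RefSeq promoter (Dnah6, Dnah7a, Dnah7b and Dnah7c) and in 68 of all 32851 promoters. The motif was searched as GTTGC, any 3 bases, and GCAAC.

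Dnah7a was at 1.63 TPM in lateral replicate 1 and listed at 0 in lateral replicates 2 to 5. In medial replicates 1 to 5 it stood at 6.03, 4.71, 12.6, 8.31 and 5.48 TPM, a mean of 7.43 ± 3.21 TPM (SD, n = 5). The medial libraries were closer together than for the other 4 genes, with medial 3 highest at 2.69 times the lowest, and the lone lateral value lay below all of them. The difference was -2.72 with a standard error of 0.42, and -3.002 without lateral replicate 1. It rested on low values, at -5.32 with a pseudocount of 0.1 and -1.20 with a pseudocount of 5.

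Near-identical copies limit what this value names. Of the distinct 50-base stretches of Dnah7a transcripts, 38.6% occur in another gene on the same strand, 29.4% in Dnah7b and 29.1% in Dnah7c, and neither paralog was analysed here. The labels do not state how the authors' counting divided reads among the 3 copies, so the level of Dnah7a is uncertain. Same-strand sharing was 1.5% for Upb1, 0.537% for Samd8 and 0% for Glt8d2 and Tmem255a.

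No other gene of the axonemal machinery passed the test. Only 2 other axonemal heavy chain genes of 14 named were in the table, and both were too low to be tested. Dnah5, of the outer arm, was at 0 to 0.507 TPM in lateral against 0.112 to 0.755 TPM in medial libraries, and Dnah2 was listed at 0 in 4 of 5 libraries of each region. Among the intermediate and light chains, docking and assembly factors, 0 of 14 tested genes passed in either direction, with a median of -0.26. Dnaic1, an intermediate chain of the outer arm, was at 0.264 to 6.23 and 3.84 to 13.2 TPM (-1.08, limma adjusted p = 0.296). Zmynd10, which helps to assemble dynein arms, was at 1.35, 0.304, 0.967, 0 and 0.858 TPM in lateral against 5.00, 4.97, 3.07, 2.34 and 4.75 TPM in medial libraries. The values of Zmynd10 did not overlap (-1.59, limma adjusted p = 0.0711), and it passed in 1 of 20 alternatives, the fit without a mean-variance trend (0.0331). Dnal4, a light chain also found in cells without motile cilia, was the most abundant at 54.5 ± 14.6 and 72.0 ± 18.7 TPM (SD, n = 5 each; limma adjusted p = 0.430).

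Of 15 defining genes of ependymal cells, which bear motile cilia, 10 were in the table and 5 could be tested, none of which passed in either direction. Their summed level ran from 8.82 to 40.5 TPM in lateral against from 7.97 to 36.5 TPM in medial libraries. Ccdc153 was listed at 0 in all 5 medial libraries and in 4 of 5 lateral ones, and Tekt1, a filament protein of motile axonemes, was listed at 0 in all 5 medial libraries. Cfap126 and Fam183b went the other way, listed at 0 in all 5 lateral libraries. Cfap126 reached 3.31 TPM in medial 3 and 0.654 in medial 5, and Fam183b at 3.73, 1.37 and 1.78 TPM in medial 3, 4 and 5, so both were highest in medial 3. Neither was above 0 in medial 1 or 2. Medial 3, with the highest Dnah7a, had the highest ependymal sum of the medial libraries, and medial 4, with the next highest Dnah7a, had the lowest of all 10. The part of ependymal cells in the level of Dnah7a was not tested. Choroid plexus genes summed to 2.44 to 13.2 and 2.52 to 11.8 TPM. The transthyretin gene Ttr was listed at 0 in 4 of 5 libraries of each region.

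Cytoplasmic dynein, the motor of transport along microtubules, gave 0 of 12 tested genes in either direction, with a median of -0.19. Its heavy chain gene Dync1h1 was at 21.8 ± 2.47 TPM in lateral against 22.2 ± 2.36 TPM in medial libraries (SD, n = 5 each; limma adjusted p = 0.963). The heavy chain of the ciliary transport motor, Dync2h1, had no overlap between the regions at 3.65 to 9.80 against 10.1 to 13.3 TPM and did not pass (-0.70, limma adjusted p = 0.251). The most abundant members of the list were Dynlrb1 at 423 ± 48.1 and 428 ± 98.1 TPM and Dynlt3 at 153 ± 29.1 and 200 ± 56.3 TPM (limma adjusted p = 0.991 and 0.454).

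The genes on either side of Dnah7a did not pass: Asnsd1 was at 10.3 ± 5.49 and 13.4 ± 4.55 TPM and the kinase gene Stk17b at 2.93 ± 1.80 and 4.19 ± 3.94 TPM (SD, n = 5 each; limma adjusted p = 0.590 and 0.840). Of 9 tested genes within 500000 bases 1 passed as higher in medial and none as higher in lateral, with a median of -0.47. That gene, 1700019D03Rik, is 376826 bases away on the same strand and was at 5.41 to 16.6 TPM in lateral against 17.3 to 35.4 TPM in medial libraries (-1.52, limma adjusted p = 0.0247). It lost its call in 7 of 21 alternatives, 6 of them without a single library (limma adjusted p of 0.0106 to 0.0698), and was named after its values were seen. Ormdl1 of the sphingolipid list is another of the 9, 86696 bases from Dnah7a.

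Tmem255a, the membrane protein gene, spans chrX:38196573-38252439 on the minus strand. The 250 bases before its RefSeq start lie at chrX:38252482-38252731 on the minus strand, with CCAAT, 53 to 49 bases before the start, in capitals.
Tmem255a: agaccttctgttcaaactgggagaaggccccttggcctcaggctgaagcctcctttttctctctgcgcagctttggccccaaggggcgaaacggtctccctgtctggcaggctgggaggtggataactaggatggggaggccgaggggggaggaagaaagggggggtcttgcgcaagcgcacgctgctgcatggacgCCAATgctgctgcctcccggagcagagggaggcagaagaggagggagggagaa

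Tmem255a was at 6.14, 1.21, 4.47, 6.83 and 2.86 TPM in lateral replicates 1 to 5, a mean of 4.30 ± 2.32 TPM (SD, n = 5). In medial replicates 1 to 5 it stood at 8.58, 47.1, 30.02, 35.8 and 44.9 TPM, a mean of 33.3 ± 15.4 TPM (SD, n = 5). The gene was above 1 TPM in all 10 libraries and had the highest medial mean of the 5 genes, but the gap between the regions was the narrowest, since medial 1 was only 1.26 times the highest lateral library. The other 4 medial libraries lay well above all lateral ones. The difference was -2.63 with a standard error of 0.46, and -3.05 without medial replicate 1. The mean level was 7.73 times higher in medial libraries.

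The other gene of the pair, Tmem255b, was near the floor of the table and was not tested, at 0 to 0.957 TPM in lateral against 0 to 2.40 TPM in medial libraries. At its end Tmem255a overlaps Zbtb33, a zinc finger repressor gene, on the other strand, and 9.28% of its 50-base stretches occur there in reverse. Zbtb33 had the higher mean in lateral, at 4.33 ± 1.89 against 3.41 ± 2.61 TPM (SD, n = 5 each; limma adjusted p = 0.713). The lysosomal membrane gene Lamp2, the nearest protein-coding neighbour before the start, was at 13.2 ± 4.31 and 15.6 ± 3.59 TPM (limma adjusted p = 0.678), and Rhox2f, on the other side, was listed at 0 in every library. Of 5 tested genes within 500000 bases none passed, with a median of -0.25.

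**Figure D3:**
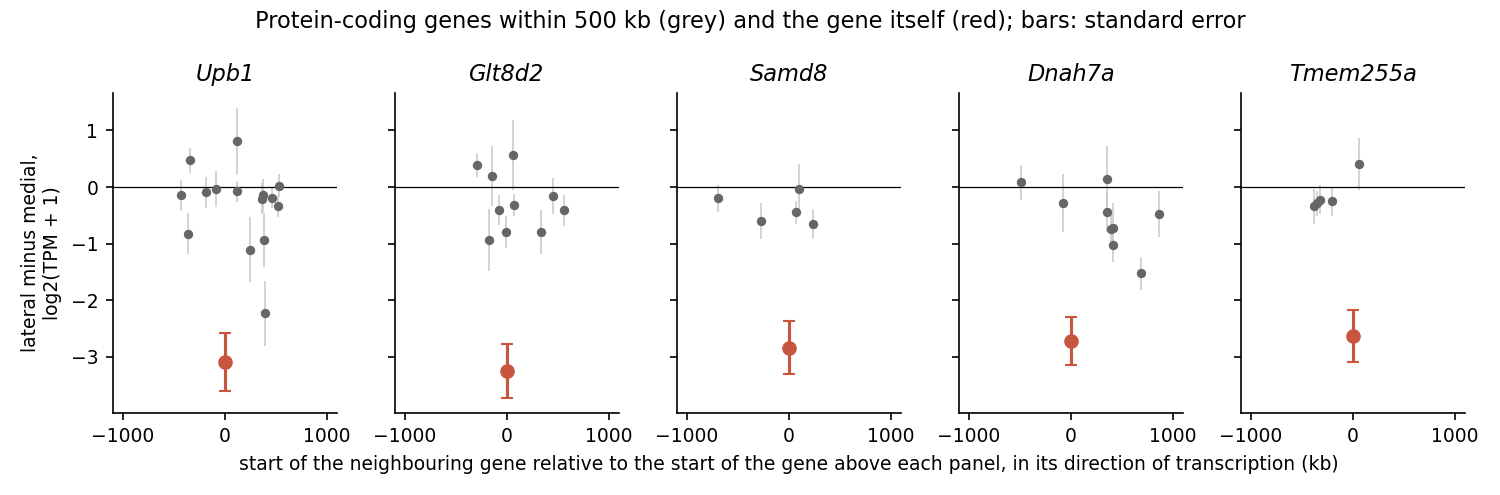
Difference between the regions (lateral minus medial, log2(TPM + 1), vertical axis, with standard errors) for protein-coding genes within 500000 bases of each of the 5 genes, against the distance of their starts in kb in the direction of transcription (horizontal axis). The 5 genes in red lie below every grey neighbour, among which 1700019D03Rik near Dnah7a at -1.52 was the one that passed.

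Over all the pathways together, 2 of 84 tested genes other than the 5 passed as higher in medial and none as higher in lateral, or 2.38% against 1.48% of all genes tested. By an unadjusted limma p under 0.05 there were 14 and 1, or 17.9% together, where 15.4% of all genes tested were under it, so the share was near the background. The median difference of the 84 genes was -0.23 and that of all genes tested -0.21. Values did not overlap for 10 of the 84 with medial higher, where 3.39% of all genes had none. The 10 were Abat, Cers5, Dync2h1, Etnppl, Galc, Ormdl1, Sptssa, Uckl1, Upp2 and Zmynd10, from 6 of the 7 pathway lists with other genes tested.

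**Figure D4:**
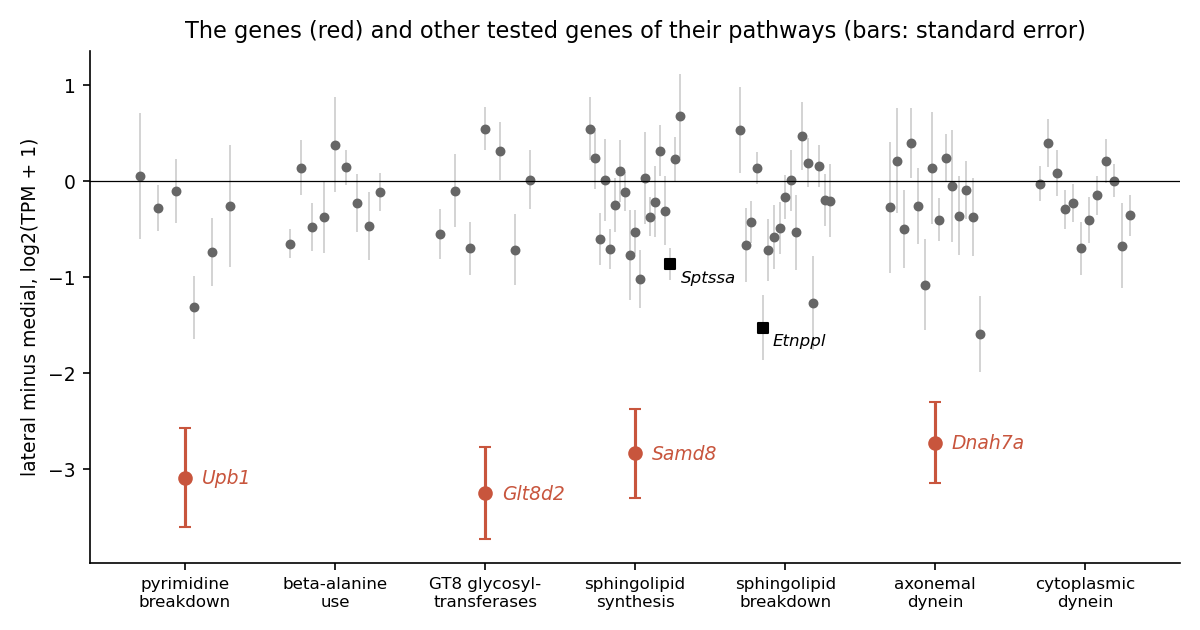
Difference between the regions (lateral minus medial, log2(TPM + 1), vertical axis, with standard errors) for the tested genes of 7 pathway lists, with Upb1, Glt8d2, Samd8 and Dnah7a in red and genes that passed the test as black squares. The 4 genes lie between -2.72 and -3.25, Sptssa and Etnppl at -0.86 and -1.52, and the medians of the lists between -0.10 and -0.27.

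In medial libraries the mean levels per length ran in the order Tmem255a, Upb1, Samd8, Glt8d2 and Dnah7a. Neighbours in that order overlapped: 33.3 ± 15.4 and 22.2 ± 14.1 TPM for Tmem255a and Upb1, 15.8 ± 7.66 and 15.6 ± 8.77 TPM for Samd8 and Glt8d2, and 7.43 ± 3.21 TPM for Dnah7a (SD, n = 5 each). Their medial means stood at percentiles 86.3, 79.8, 72.7, 72.5 and 54.5 of the 20483 genes in the table, tested or not. Their lateral means stood at percentiles 46.2, 25.8, 19.6, 18.2 and 10.5.

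Medial replicate 1 had the lowest medial value of Glt8d2, Samd8 and Tmem255a. It was the lowest medial library for 70 of all 171 genes that passed as higher in medial, or 40.9%, and each other medial library for 9.94% to 21.6% of them. The summed level of the 5 genes was 35.5 TPM in medial 1, 85.8 to 125 TPM in the other medial libraries and 3.64 to 10.9 TPM in the lateral ones. Its 50 most abundant genes took 62.5% of TPM, against 48.6% to 58.1% in the other medial libraries. It had the fewest genes above 0 of the medial libraries (16509, against 16617 to 17003) and the highest AY036118 of all 10, while its mitochondrial share of 30.5% lay among theirs. Its sums of neuronal genes (2098 TPM) and D1 neuron genes (880.0 TPM) were the lowest of the medial libraries. The part of these in the levels of the 5 genes was not tested. Without medial replicate 1 the differences were -3.28 for Upb1, -3.44 for Glt8d2, -3.32 for Samd8, -2.77 for Dnah7a and -3.05 for Tmem255a.

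Pairs of the 5 genes had a Pearson r of 0.715 to 0.935 over the 10 libraries on log2(TPM + 1), with a median of 0.847. Since all 5 were chosen for the same contrast, that range was set by the choice. After subtracting the mean of each region, the r of the 10 pairs ran from -0.686 to 0.718 with a median of 0.234, so the pairs differed in sign. The lateral values of Dnah7a, Glt8d2 and Samd8 lay near the floor. These r values thus cannot show whether the 5 genes share an order of libraries within a region. The pair Samd8 and Tmem255a was at 0.718, but this fell to -0.195 without 1 library (Spearman rho 0.285 over all 10). Upb1 and Dnah7a went in opposite directions at -0.686, with -0.787 to -0.534 when each library was left out in turn. These are descriptions over 10 libraries that share a platform and a total fixed by TPM.

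Within the regions Upb1 followed Penk, the enkephalin precursor gene of D2 projection neurons. The r of their deviations from the region means was 0.868 (0.850 to 0.927 leaving out each library, rho 0.770). Penk was at 1207, 2916, 3219, 2688 and 2715 TPM in lateral against 1778, 2337, 1687, 3019 and 2618 TPM in medial libraries. The regions overlapped for Penk (limma adjusted p = 0.872), while lateral 1 and medial 3, its lowest libraries, were also the lowest of their regions for Upb1. With the other D2 genes the r of Upb1 was 0.654 for Adora2a (0.473 to 0.801 leaving out each library), 0.623 for Gpr6 (0.370 to 0.859) and 0.498 for Drd2 (0.235 to 0.742), with rho between 0.236 and 0.345. These values thus depended on single libraries. With D1 genes it was -0.06 for Drd1 (-0.44 to 0.322), -0.443 for Tac1 (-0.777 to -0.133), -0.360 for Isl1 (-0.643 to -0.027) and -0.244 for Pdyn (-0.638 to 0.076).

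Dnah7a ran against the same genes, at -0.910 with Adora2a (-0.941 to -0.796, rho -0.625), -0.871 with Gpr6 (-0.929 to -0.758, rho -0.144), -0.767 with Penk (-0.892 to -0.342, rho -0.369) and -0.749 with Drd2 (-0.830 to -0.469, rho -0.131). With D1 genes its r was 0.571 for Tac1, 0.545 for Isl1, 0.498 for Pdyn and -0.08 for Drd1. Leaving out 1 library took the first 3 of these to 0.041, 0.049 and 0.090. Adora2a stood at 61.7 TPM in the lateral 1 library and 73.0 TPM in medial 3, against 139 to 216 and 142 to 179 TPM in the other libraries of those regions. In those 2 libraries Dnah7a had its highest lateral and its highest medial value. With Dnah7a listed at 0 in 4 lateral libraries, the value rests mainly on lateral 1 and medial 3, which lay apart from the other libraries in both genes. The genes compared here were chosen with these values in view.

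**Figure D5:**
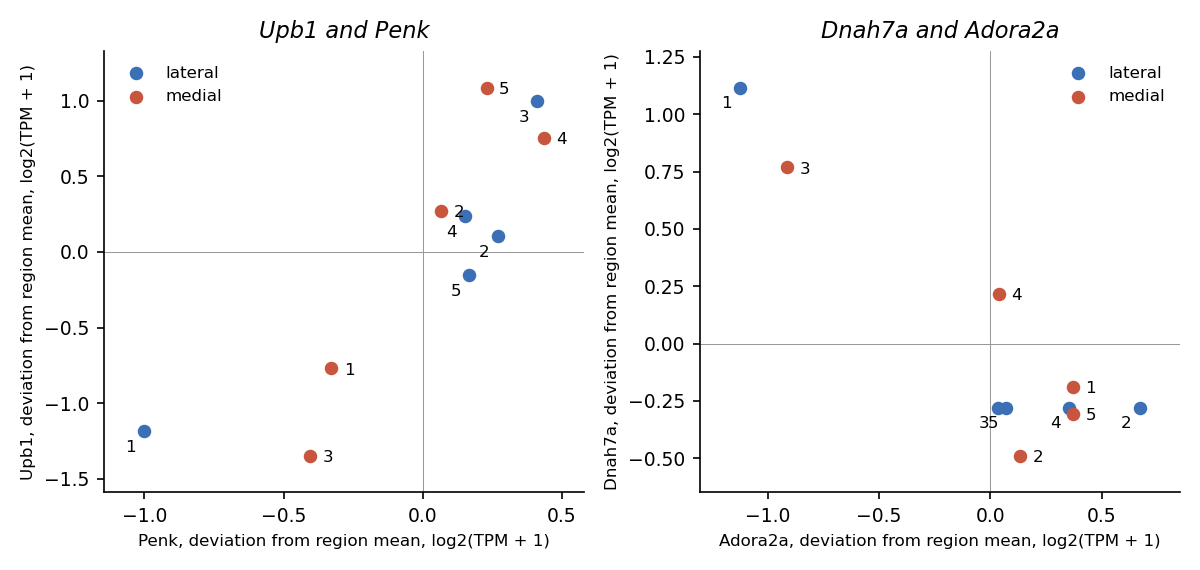
Deviation of Upb1 against that of Penk (left) and of Dnah7a against that of Adora2a (right), each as the deviation from the mean of its region on log2(TPM + 1), for 5 lateral and 5 medial libraries numbered by replicate. Lateral 1 and medial 3 lie at the low end of both horizontal axes, with low Upb1 and high Dnah7a, and r is 0.868 on the left and -0.910 on the right.

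The genes most alike to each of the 5 over the 10 libraries were sought among the 9137 genes whose mean reached 5 TPM. Since the 5 genes were chosen for the contrast between the regions, a gene that follows one of them over all 10 libraries is likely to differ between the regions too, and its levels are given as a description with no test. For Upb1 they included Thoc2 (r = 0.979), Pank4 (0.976), Khdc4 (0.974) and Usp46 (0.961). Pank4 was at 11.8 TPM in lateral against 25.5 TPM in medial libraries. By deviations alone the most alike were Bmpr2 (0.958), a BMP receptor gene, Igfbp5 (0.956), Zbtb11 (0.950), Rnf170 (0.944) and Pank4 again (0.944). Igfbp5, which encodes a binding protein of insulin-like growth factors, was higher in lateral, the opposite of Upb1, at 11.2 against 3.89 TPM (1.32, limma adjusted p = 0.0323, lost in 10 of 21 alternatives with values of 0.0141 to 0.137).

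For Glt8d2 the most alike over the 10 libraries were Rims2 (0.970), an active zone scaffold gene, the orphan receptor gene Gpr149 (0.966), Cxxc4 (0.961), Lrrn3 (0.957) and Gulp1 (0.954). Lrrn3, a leucine-rich repeat neuronal gene, was at 21.7 TPM in lateral against 90.6 TPM in medial libraries. Gulp1, an adaptor gene for engulfment, was at 3.38 and 23.8 TPM. Cxxc4, a zinc finger regulator of Wnt signalling, was at 4.45 and 18.2 TPM. By deviations the most alike were Sqle (0.918), the neurokinin B precursor gene Tac2 (0.916), Dimt1 (0.906), Pds5b (0.894) and Gpr149 (0.888).

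For Samd8 they included Blcap (0.967), Naa10 (0.965), Dock11 (0.958) and the ephrin gene Efna5 (0.955). Efna5 was at 3.53 TPM in lateral against 21.5 TPM in medial libraries. By deviations they were Mtmr4 (0.981), Dffa (0.974), Camta1 (0.970), Pygo2 (0.967) and Zdhhc3 (0.966), but leaving out 1 library took Mtmr4 to 0.327, Dffa to 0.485 and Camta1 to 0.130.

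For Dnah7a they were Rasd1 (0.966), a Ras-related gene induced by dexamethasone, the insulin receptor substrate gene Irs2 (0.948), Sf3b5 (0.946), Amotl1 (0.943) and Fam50a (0.940). Rasd1 was at 1.28 and 11.5 TPM and is among the same 12 largest differences towards medial. Irs2 was at 7.42 and 25.1 TPM. By deviations they were Mrpl53 (0.926), Pcdhga10 (0.908), the smooth muscle gene Tagln (0.907), Rpl7l1 (0.905) and Ap3s2 (0.905).

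For Tmem255a they included Rab9b (0.977), a small GTPase gene of endosomal transport, Vta1 (0.968), the semaphorin receptor gene Nrp1 (0.956) and Gucy1a1 (0.950), which encodes a subunit of the nitric oxide receptor. Nrp1 was at 3.22 and 14.8 TPM. By deviations they were Usp12 (0.951), Matr3 (0.935), Tob1 (0.928), Cript (0.921) and Zfp148 (0.918), none of which passed between the regions.

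Of 118 tested genes that mark the cell types a captured piece could hold, 9 passed, or 7.63% against 1.48% of all genes tested. On the medial side were Sox11, a transcription factor gene of young neurons, the astrocyte gene Ntsr2, Rarb of projection neurons, Lypd1 of D1 neurons, Dgkg of the lateral septum list and Gad2, a GABA-synthesizing enzyme gene of the list shared by neurons. On the lateral side were C1qa, Tmem119 and Ctss of microglia. Gad2 and Lypd1 lost their calls in 2 and 1 of 21 alternatives, and the other 7 in 10 to 17.

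Neuroblast and progenitor genes, 9 of 10 in the table, summed to 15.0 to 39.1 TPM in lateral against 39.5 to 64.0 TPM in medial libraries. These sums did not overlap, by a narrow margin that rested on Sox11. Lateral 3 summed to 39.1 TPM with 12.4 TPM of Sox11, and medial 5 to 62.4 TPM with 46.0 TPM of it. Without Sox11 the sums overlap, and 1 of 7 tested genes of the list passed. Sox11 was at 7.11, 6.07, 12.4, 13.9 and 14.1 TPM in lateral against 18.0, 24.4, 40.4, 29.2 and 46.0 TPM in medial libraries (-1.47, limma adjusted p = 0.0332, and 0.0214 to 0.101 over the alternatives). Dcx, the defining gene of migrating neuroblasts, was at 1.25 to 4.33 and 1.16 to 8.73 TPM (limma adjusted p = 0.516), and the mitotic gene Top2a was at most 1.32 TPM in any library. The part of these cells in the levels of the 5 genes was not tested.

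Microglia genes summed to 426 to 666 TPM in lateral against 202 to 432 TPM in medial libraries. All 10 tested genes of this list had a difference towards lateral (median 0.91), and 3 of them passed the test. Oligodendrocyte genes summed to 309.9 to 1037 and 113 to 514 TPM. Of these, 9 of 10 had a difference towards lateral (median 0.99), and none passed the test. Sums of D2 neuron genes, at 1394 to 3680 and 1919 to 3546 TPM, and of endothelial genes, at 212 to 464 and 243 to 435 TPM, overlapped. Interneuron genes summed to 550.5 to 5751 TPM in lateral against 36.4 to 1791 TPM in medial libraries, with a median difference of 1.43. The neuropeptide genes Sst and Npy led this list, Sst at 277 to 2577 against 0 to 825 TPM (5.11, limma adjusted p = 0.0890) and Npy at 186 to 2962 against 6.82 to 804 TPM (4.16, limma adjusted p = 0.0834). The part of interneurons in the levels of the 5 genes was not tested. D1 neuron genes summed to 423 to 1199 and 880.0 to 1852 TPM. Leptomeningeal genes ran from 75.7 to 244 and from 29.5 to 300.1 TPM, and mural cell genes from 42.4 to 571 and from 51.6 to 180.4 TPM.

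Lateral replicate 1 stood apart from the other lateral libraries in several of these sums. It also had the fewest genes above 0 of all 10 libraries, at 15402 against 16174 to 16769 in the other lateral ones. Its mural genes summed to 571 TPM, with 269 TPM of the smooth muscle actin gene Acta2 against at most 3.10 TPM in the other lateral libraries. Its D2 neuron sum of 1394 TPM was the lowest of all 10 libraries. It was also the only lateral library with Dnah7a above 0, and the only library with Upb1 listed at 0. Without it the differences were -2.79 for Upb1, -3.08 for Glt8d2, -2.86 for Samd8, -3.002 for Dnah7a and -2.78 for Tmem255a.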

How the data were processed

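The series holds 5 lateral and 5 medial shell libraries, grouped by their titles. The authors deposited 1 table of TPM values for 20483 gene symbols, and each library sums to the same total. Per the submitters' processing notes, the tools were featureCounts 1.6.3, StringTie 1.3.4, HISAT2 2.1.0 and fastp 0.20.0 on GRCm38 (mm10). The labels do not say which of them made the TPM values, with which annotation, or whether strand was used. Every one of those 20483 symbols matched GENCODE M21, which supplied positions and transcripts, and RefSeq supplied the promoters.

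Genes with at least 1 TPM in at least 5 of the 10 libraries (15596) were fitted on log2(TPM + 1) by limma 3.58.1 (R 4.3.3) with an empirical Bayes mean-variance trend. The p-values were adjusted by Benjamini-Hochberg over all genes tested, with a threshold of 0.05, and the fit was run on simulated data. That simulation drew normally distributed values and moved only genes above a set mean level. It therefore cannot speak for low genes with libraries listed at 0. TPM holds no read counts, so depth and counting error are unknown. Other steps used Python 3.11.15, numpy 2.4.6, pandas 2.3.3, scipy 1.17.1 and matplotlib 3.10.9. The genes described and all lists were chosen with earlier results of these data known. The text names the 5 genes, the genes of pathway and cell type lists that passed, others of those lists by highest mean TPM, genes that overlap or neighbour the 5 in the genome, and the 5 genes most alike to each by Pearson r over libraries or deviations. A few genes that this rule names are not reported here. Other named genes were chosen after their values were seen. The 21 alternatives covered the pseudocount (0.1 and 5), the filter, scaling, trend, sample weights, a replicate block, each library left out, and lateral replicate 5 left out with medial replicate 2.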

Additional observations from a re-analysis of the deposited data

Results flagged for a closer look

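In groups of 5 libraries, the highest or lowest library was taken as far from the others when its gap to the nearest one, divided by the range of the group, passed Dixon's 95% critical value. This was the case in 6 of 44 groups of values. Chance gives it in about 1 in 20 groups if values are independent and normally distributed. The values here were untransformed TPM, and the groups share libraries, so the count cannot be read as an excess. Dnah7a was at 1.63 TPM in lateral replicate 1 and listed at 0 in the other 4 lateral libraries, a pattern that is flagged whatever the value above 0. Lateral replicate 1 also held the highest summed mural cell genes (571 TPM) and lateral septum genes (1026 TPM) of the lateral libraries and the lowest summed D2 neuron genes (1394 TPM). Medial replicate 5 held the highest sums of oligodendrocyte precursor genes (115 TPM) and interneuron genes (1791 TPM) of the medial libraries. How these bear on the 5 genes was not tested.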

How the results depend on the processing

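The differences of Upb1, Glt8d2, Samd8, Dnah7a and Tmem255a were towards medial in every alternative that gave a value. Of those 103 values 96 lay within 1 SD of the reported one, and the 7 that moved further all came from the pseudocount. The filter, the trend and the replicate block leave a difference itself unchanged, so their values among the 96 could not move. The SD is also a wide measure. Samd8 went from -2.84 to -3.58 with a pseudocount of 0.1, by more than its standard error of 0.47, and still counted as within it. With a pseudocount of 0.1 or 5 the differences were -4.15 and -1.90 for Upb1, -5.34 and -1.74 for Glt8d2, -3.58 and -1.67 for Samd8, -5.32 and -1.20 for Dnah7a, and -2.93 and -1.94 for Tmem255a. A filter of 5 TPM in 5 libraries left no value for Samd8 and Dnah7a. Counts over all genes moved more. The 171 genes higher in medial became 107 with a pseudocount of 0.1, 82 with median-ratio scaling, 100 with quantile normalization, 111 without a mean-variance trend, and 31 without lateral replicate 5 and medial replicate 2, the libraries in which the transcript AY036118 was near 0. The 60 genes higher in lateral became 34 without the trend and 12 without those libraries. Leaving out each library in turn gave 56 to 188 genes higher in medial and 23 to 69 higher in lateral. The 2 pathway genes higher in medial became 1 with a pseudocount of 0.1, with no filter, with the 5 TPM filter and with rescaling without mitochondrial and haemoglobin genes, 0 with median-ratio scaling and without those libraries, and 0 to 2 with each library left out. The cause of these changes was not tested. Of 95 likeness values 66 moved with Spearman's rho and 37 with median-ratio scaling.

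Whether the replicate numbers pair the libraries is not given in the labels. Same-numbered libraries had correlations of -0.053 to 0.042 in their deviations, where all 25 pairs of a lateral and a medial library ran from -0.108 to 0.130. Of the lateral libraries 0 of 5 correlated best with the medial one of their own number. Correlations this weak cannot show whether libraries share an animal. With the replicate block 45 genes were higher in medial and 19 in lateral, and 0 pathway genes passed.

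Depth is unknown, so counting error could not be set beside the low values of Upb1, Glt8d2 and Dnah7a in lateral libraries. The 5 libraries of a region limit the precision of every value, and whether each came from its own animal is not known.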
